A study of Homo sapiens with 6 samples.

Results

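Tight junctions and desmosomes are the contacts that seal and anchor epithelial cells to each other, and 42 genes of these structures were described here in HCT-116, an established human colon carcinoma cell line. The members were taken by symbol from the deposited table and comprised 14 claudins, 7 other tight junction membrane proteins, 8 junction scaffold and polarity proteins, 6 desmosomal cadherins and 7 desmosomal plaque proteins. All 42 were found among the 60546 gene identifiers. The cells carried the viral vector PMSCV either with GOLPH3, a Golgi phosphoprotein (HCT-116-PMSCV-GOLPH3), or empty (HCT-116-PMSCV-Vector), and both were stable lines grown in the same medium, labelled wild type. RNA from 3 samples of each line was sequenced, so a difference between the groups is a difference between these lines, and the p-values measure the spread between samples that the methods describe as different generations of a line.

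In a tight junction, claudins, occludin-family proteins and junctional adhesion molecules span the membrane and are held by zonula occludens proteins, cingulin and the PAR and Crumbs polarity complexes on the inner side. In a desmosome, the cadherins called desmogleins and desmocollins cross the gap between cells, while plakophilins, plakoglobin and the plakin proteins desmoplakin, periplakin and envoplakin tie them to keratin filaments. Simple epithelia such as colon use mainly desmoglein 2 and desmocollin 2, and the other desmosomal cadherins are best known from skin.

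Between 15708846 and 21900764 reads per library were recovered from the deposited values, which are reads divided by a size factor per library and are called normalized reads. Counting error alone leaves room for up to 3 reads in a gene with none, which corresponds to 2.47 to 3.29 normalized reads across the libraries. The GOLPH3 transcript itself was not higher in the libraries labelled GOLPH3. Its values were 1630, 1272 and 1383 normalized reads there against 1968, 1892 and 1472 for Vector, a log2 fold change of -0.31 (SE 0.27, limma adjusted p = 0.609), and the exact two-sided permutation test gave p = 0.2 where 0.1 is the smallest value possible. Of 12 colon epithelial markers, EPCAM, CDH1, KRT8, KRT18 and KRT19 were abundant in all libraries, CDX2 lay between 184 and 897 normalized reads, KRT20 was at 0, and CDX1, VIL1, LGALS4, CDH17 and GPA33 did not exceed 9.66. In the libraries labelled Vector, 6 of 9 genes of a list typical of HEK293 cells were higher (limma adjusted p under 0.05). Of all genes tested, 4.12% were higher in Vector by that test. The list, chosen with earlier results of these data known, is described with the members that were lower.

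Of the 9 members that passed the test described further on (adjusted p under 0.05), 5 had a promoter in the RefSeq table used here, which is not complete (GRCh38.p14, 250 bases before to 50 bases after a transcript start). These are shown because CRB3, CLDN3, CLDN4 and TJP3 were higher in the libraries labelled GOLPH3 and DSC3 was lower. Capitals mark CAGGTG or its reverse complement CACCTG, the E-box letters known to be bound by Snail and ZEB family repressors of epithelial genes. CRB3 lies at chr19:6464021-6464320 on the plus strand, CLDN3 at chr7:73770221-73770520 on the minus strand, and CLDN4 at chr7:73830746-73831045 on the plus strand. The TJP3 window with a match is chr19:3721487-3721786 on the plus strand, and that of DSC3 is chr18:31042693-31042992 on the minus strand.
CRB3: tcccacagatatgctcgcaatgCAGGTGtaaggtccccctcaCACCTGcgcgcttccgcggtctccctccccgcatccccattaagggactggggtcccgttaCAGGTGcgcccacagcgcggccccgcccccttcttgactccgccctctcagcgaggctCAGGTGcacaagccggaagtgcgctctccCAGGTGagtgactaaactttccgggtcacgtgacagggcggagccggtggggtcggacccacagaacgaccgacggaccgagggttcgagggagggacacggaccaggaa
CLDN3: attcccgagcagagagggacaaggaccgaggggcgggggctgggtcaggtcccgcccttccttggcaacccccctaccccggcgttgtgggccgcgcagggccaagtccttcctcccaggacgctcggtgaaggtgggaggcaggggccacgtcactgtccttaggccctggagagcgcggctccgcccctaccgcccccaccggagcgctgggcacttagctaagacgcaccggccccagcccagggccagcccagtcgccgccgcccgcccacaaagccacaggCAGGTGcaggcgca
CLDN4: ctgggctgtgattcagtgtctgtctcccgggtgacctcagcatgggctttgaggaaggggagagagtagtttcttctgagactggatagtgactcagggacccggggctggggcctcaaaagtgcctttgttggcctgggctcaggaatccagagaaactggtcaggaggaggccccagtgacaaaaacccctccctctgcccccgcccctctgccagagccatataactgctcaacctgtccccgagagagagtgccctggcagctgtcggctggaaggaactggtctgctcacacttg
TJP3: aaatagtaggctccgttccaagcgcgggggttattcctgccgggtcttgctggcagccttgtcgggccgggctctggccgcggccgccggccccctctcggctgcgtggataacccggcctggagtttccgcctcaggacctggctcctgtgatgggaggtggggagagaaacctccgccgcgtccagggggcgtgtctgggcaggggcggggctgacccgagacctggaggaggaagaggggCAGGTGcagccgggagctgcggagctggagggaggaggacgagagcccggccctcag
DSC3: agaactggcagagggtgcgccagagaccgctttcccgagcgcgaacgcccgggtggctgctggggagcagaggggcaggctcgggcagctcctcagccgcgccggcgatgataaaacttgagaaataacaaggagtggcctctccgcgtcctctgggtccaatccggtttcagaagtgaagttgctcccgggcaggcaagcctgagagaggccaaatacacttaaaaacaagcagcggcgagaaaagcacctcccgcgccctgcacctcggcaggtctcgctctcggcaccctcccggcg

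The CRB3 window held 5 matches, with first bases at positions -228, -208, -147, -89 and -60 from the transcript start, whereas CLDN3 had 1 match at position 37. TJP3 had 1 match at position -7 from one of its 2 listed starts and no match at the other, and CLDN4 and DSC3 had none. Promoters were listed for 29 of the 42 members, in 43 windows, and 17 of these windows (39.5%) held the motif on either strand, against 7231 of all 35116 windows (20.6%). At least 5 copies were present in 2 of the 43 windows, those of CRB3 and one of CLDN7, and in 33 of all windows (0.094%). That cut equals the CRB3 count, so the comparison only describes these windows. Member windows were also richer in G and C (median 64%) than all windows (58.7%). The Grainyhead-like letters AACCNGTT, searched in the same way, occurred in 1 member window, of CGN (2.33%), and in 1.73% of all windows. TATAAA occurred in 0 member windows and in 11.5% of all windows. These matches describe letters only, and no binding was measured.

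The test took genes with a value of 1 or more in 3 or more libraries, which 37 members met. By limma on log2(normalized reads + 1), with adjustment over all 26536 genes tested, 7 members were higher in the libraries labelled GOLPH3 (adjusted p under 0.05), in which direction 0.953% of all genes tested passed. These were the claudins CLDN3 and CLDN4, the scaffold and polarity genes TJP3 and CRB3, and the plaque genes PKP3, PPL and EVPL. A further 2 members, JAM3 and DSC3, were lower, in which direction 4.12% of all genes passed. The median log2 fold change was 0.46 over the 37 members and 0.02 over all genes tested. For 14 members every library labelled GOLPH3 lay above every library labelled Vector (9.2% of all genes tested), and for 3 members below (12.8%).

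Since 25 members had a mean of at least 100 normalized reads and most genes in the table did not, the same counts were made among abundant genes. Of these 25 members, 7 were higher and 2 were lower at adjusted p under 0.05, and 12 and 2 had groups that did not overlap. Among all 11267 genes at that level, 1.82% were called higher and 3.12% lower, and 9.88% and 13.6% had groups that did not overlap in the respective directions. The plot of levels shows every member in every library.

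**Figure D1:**
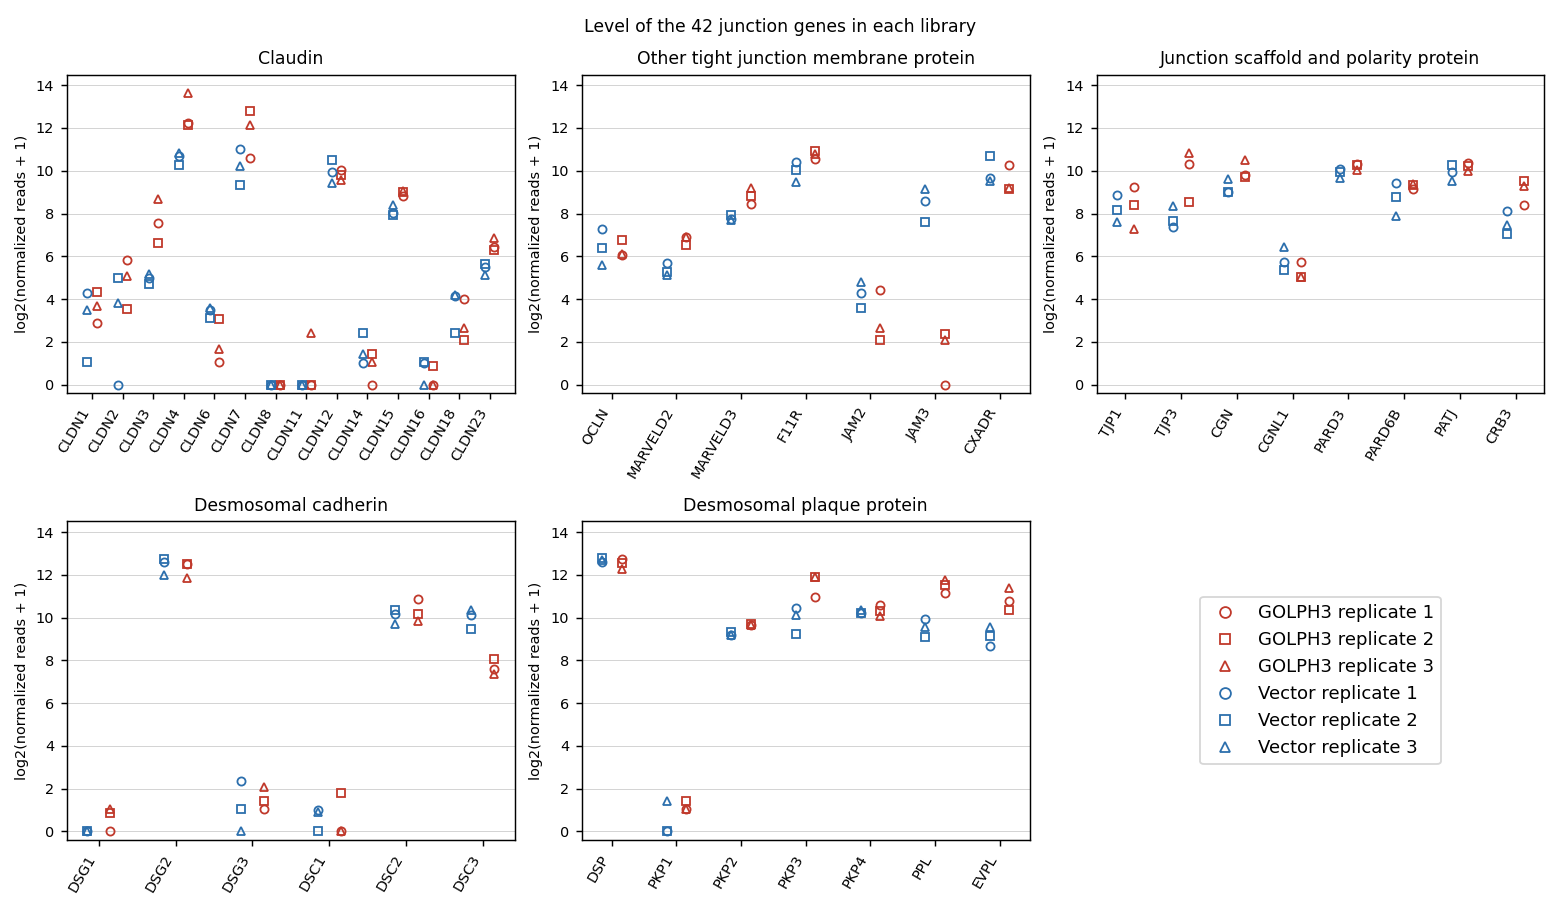
Level of the 42 members as log2(normalized reads + 1), 1 panel for each role, with 1 point for each library (red GOLPH3, blue Vector, marker shape the replicate). CLDN3, CLDN4, PPL and EVPL lie higher in all 3 libraries labelled GOLPH3, JAM3 and DSC3 lie lower, and DSG2 and DSP overlap at high levels.

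The claudins, which form the paracellular seal, were represented by few abundant genes. Levels per kb of exon, the scale used to compare genes, placed CLDN7 first in both lines (1764 ± 1121 normalized reads per kb in GOLPH3 and 527 ± 295 in Vector, SD, n = 3) and CLDN4 second (1565 ± 982 and 337 ± 65.4). These ranks are of means, whose spreads overlapped in both groups. Per kb, CLDN4 was above CLDN7 in GOLPH3 replicates 1 and 3 and in Vector replicate 2. In normalized reads without length, CLDN4 had the higher mean in GOLPH3 (7358 against 4395) and in Vector (1584 against 1312). The order of CLDN4 and CLDN7 therefore rests on the exon lengths used (4702 and 2492 bases). CLDN3, CLDN15 and CLDN12 followed in GOLPH3, at 180 ± 124, 171 ± 13.9 and 134 ± 20.8 per kb. In Vector the order below CLDN4 was CLDN12 (153 ± 55.8), CLDN15 (96.3 ± 16.7) and CLDN3 (23.9 ± 3.93), so CLDN3 had the lowest level of the 3 there.

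CLDN4 (ENSG00000189143, chromosome 7, 73799542 to 73832693), a claudin of many simple epithelia, had 4844, 4541 and 12689 normalized reads in GOLPH3 and 1666, 1243 and 1842 in Vector. The groups did not overlap, and GOLPH3 replicate 3 was far above the other two. The log2 fold change was 2.06 (95% confidence interval 1.22 to 2.91, adjusted p = 0.0071). CLDN3 (ENSG00000165215, chromosome 7, 73768997 to 73770270), a related claudin, had 187, 97.3 and 405 normalized reads in GOLPH3 and 30.9, 25.2 and 35.2 in Vector. It rose by 2.65 on the log2 scale (1.53 to 3.77, adjusted p = 0.00873), again without overlap, and without GOLPH3 replicate 3 by 2.12 (adjusted p = 0.0505).

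CLDN3 and CLDN4 are neighbours, 29.3 kb apart between the gene spans given above. The CLDN4 promoter window shown further up lies inside the span of that gene, from 73830746, and so is farther from CLDN3. The nearest tested protein-coding genes outside the pair were ABHD11 (log2 fold change 0.82, adjusted p = 0.302) and METTL27 (1.25, adjusted p = 0.233), and neither passed the test. CLDN7 had 1532, 7113 and 4541 normalized reads in GOLPH3 and 2098, 642 and 1197 in Vector. Here GOLPH3 replicate 1 lay below Vector replicate 1, and the log2 fold change of 1.65 (0.47 to 2.82) did not pass the test (adjusted p = 0.118). Without GOLPH3 replicate 1 it was 2.28 and passed (adjusted p = 0.00815), and CLDN7 also passed with DESeq2 (adjusted p = 0.0132) and with the P number of the sample titles as a covariate (0.00678) or as a block (3.19e-13, 1 residual degree of freedom).

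Of the other claudins, CLDN23 had 84.8, 77.5 and 114 normalized reads in GOLPH3 and 44.3, 48.2 and 34.3 in Vector, with no overlap but an adjusted p of 0.179. CLDN15, known in intestine as a cation-pore claudin, also had groups that did not overlap (449 to 524 and 241 to 333 normalized reads, adjusted p = 0.155). The low-level CLDN6 had 1.07, 7.42 and 2.13 normalized reads in GOLPH3 and 10.3, 7.67 and 11.2 in Vector. These few reads did not overlap between groups, and the difference of -1.48 on the log2 scale missed the threshold (adjusted p = 0.287). The 2 groups overlapped for CLDN12 (765 to 1046 and 690 to 1435 normalized reads, log2 fold change -0.14, interval -0.85 to 0.57).

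The remaining claudins were low. CLDN2, another pore-forming claudin, reached 55.8 normalized reads at most, and CLDN1, CLDN14 and CLDN18 did not exceed 19. These 4 overlapped between groups and did not pass the test. CLDN11 and CLDN16 were above 0 in at most 3 libraries with no more than 4.27 normalized reads and were not tested, and CLDN8 was at 0 in all 6. Summed per kb, the 14 claudins came to 2164 to 5203 in GOLPH3 and 877 to 1491 in Vector. CLDN4 and CLDN7 together made up 76.0% to 89.8% of that sum in GOLPH3 and 59.5% to 80.2% in Vector, ranges that overlapped.

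**Figure D2:**
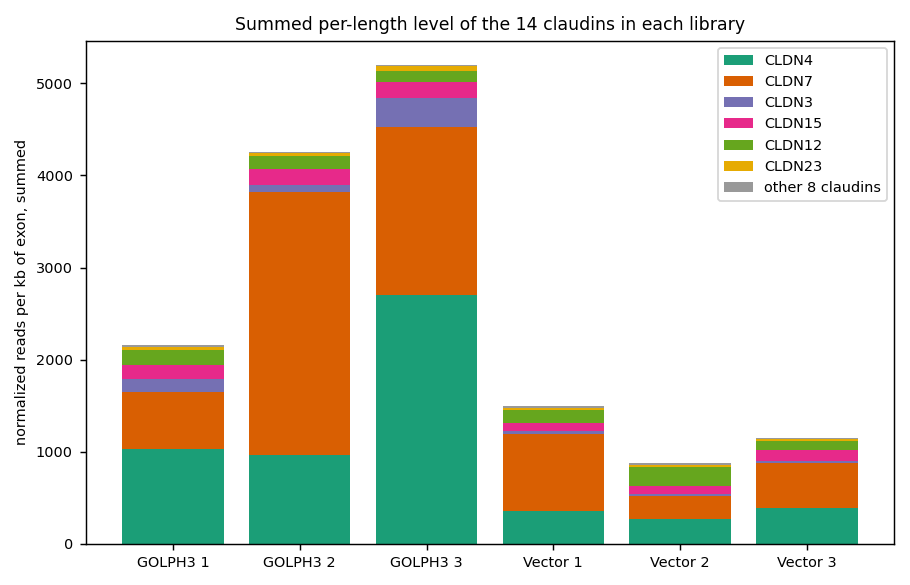
Summed level of the 14 claudins in each of the 6 libraries, in normalized reads per kb of exon, with colours for single claudins. The sum lay between 2164 and 5203 in the libraries labelled GOLPH3 and between 877 and 1491 in those labelled Vector, and CLDN4 and CLDN7 were its 2 largest parts in all 6 libraries.

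Among the other membrane proteins of the tight junction, JAM3 was lower and none was higher at the threshold. JAM3 (ENSG00000166086, chromosome 11, 134068925 to 134152001), an immunoglobulin-like adhesion molecule, had 0, 4.12 and 3.2 normalized reads in GOLPH3, which were 0, 5 and 3 reads, and 389, 193 and 557 normalized reads in Vector. The groups were separated by a wide gap, with a log2 fold change of -6.97 (-8.45 to -5.49, adjusted p = 4.48e-05) that is understated by the pseudocount of 1. Its tested neighbours IGSF9B (log2 fold change 0.14) and VPS26B (-0.0003) had adjusted p-values of 0.86 and 1. Exons of JAM3 share 465 bases with NCAPD3 on the opposite strand, 8.53% of its exon length, and the strand setting of the counting is not given in the sources used here.

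F11R, which encodes junctional adhesion molecule A, had the highest level of this group per kb in both lines (341 and 204), with 1480, 1926 and 1783 normalized reads in GOLPH3 and 1344, 1032 and 720 in Vector. In normalized reads without length, CXADR had a slightly higher mean than F11R in Vector (1060 and 1032). The F11R groups did not overlap, but the log2 fold change of 0.78 did not pass (0.12 to 1.45, adjusted p = 0.196). F11R shares 36.6% of its exon length with AL591806.3, a gene model on the same strand, and its value is uncertain to that extent. JAM2 had at most 26.6 normalized reads. Of the summed per-kb level of the 3 junctional adhesion molecules, JAM3 took 14.7% to 41.1% in Vector and at most 0.198% in GOLPH3.

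The tricellular and occludin-like proteins MARVELD2 and MARVELD3 both had groups that did not overlap. MARVELD2 (tricellulin) had 117, 91.5 and 117 normalized reads in GOLPH3 and 50.4, 37.2 and 33.5 in Vector, a log2 fold change of 1.42 (0.53 to 2.30, adjusted p = 0.0719). MARVELD3 had 347, 449 and 586 in GOLPH3 and 213, 245 and 206 in Vector, a log2 fold change of 1.02 (0.33 to 1.72, adjusted p = 0.0998). Neither passed, and 16.6% of the MARVELD3 exons overlap PHLPP2 on the opposite strand. Occludin itself (OCLN), 48 kb from MARVELD2, overlapped between groups (66.6 to 109 and 47.2 to 155 normalized reads, log2 fold change -0.10, interval -1.15 to 0.96). So did CXADR, the coxsackie and adenovirus receptor (574 to 1226 and 739 to 1627).

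On the inner side of the junction, TJP3 and CRB3 rose and the other 6 scaffold and polarity genes did not pass the test. TJP3 (ENSG00000105289, chromosome 19, 3708109 to 3750813), which encodes zonula occludens 3, had 1267, 367 and 1819 normalized reads in GOLPH3 and 163, 199 and 326 in Vector. GOLPH3 replicate 2 lay only just above Vector replicate 3, and the log2 fold change was 2.1 (0.97 to 3.24, adjusted p = 0.0372). CRB3 (ENSG00000130545, chromosome 19, 6463777 to 6467221), the apical polarity protein whose promoter held 5 E-box matches, had 337, 726 and 621 in GOLPH3 and 279, 130 and 178 in Vector. Its groups did not overlap, and its log2 fold change of 1.51 (0.65 to 2.38) was close to the threshold (adjusted p = 0.049). The call of TJP3 was lost without any single library other than GOLPH3 replicate 2 (adjusted p 0.0576 to 0.165), and that of CRB3 without any other than GOLPH3 replicate 1 (0.0619 to 0.185).

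TJP1, which encodes zonula occludens 1, the partner of TJP3, ranged from 153 to 610 normalized reads in GOLPH3 and from 195 to 460 in Vector (log2 fold change 0.10, interval -0.97 to 1.17). Cingulin (CGN) did not overlap between groups, with 823 to 1455 and 509 to 772 normalized reads (adjusted p = 0.219), and its paralog CGNL1 had 85.8 or fewer. PATJ and PARD3 had close means, and PATJ was the higher only over all 6 libraries or in Vector. PATJ had 1334, 1174 and 1008 normalized reads in GOLPH3 and 981, 1223 and 724 in Vector, which overlapped. PARD3 and PARD6B of the PAR complex overlapped as well, at 814 to 1276 and 232 to 694 normalized reads over all libraries.

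The desmosomal cadherins differed among themselves. DSG2 (desmoglein 2) had 5792, 5818 and 3658 normalized reads in GOLPH3 and 6129, 6822 and 4136 in Vector. Its groups overlapped with a log2 fold change of -0.16 (-0.84 to 0.52, adjusted p = 0.837). DSC2 (desmocollin 2) overlapped too, with 924 to 1872 and 826 to 1320 normalized reads (log2 fold change 0.22, interval -0.51 to 0.94). The skin cadherins DSG1, DSG3 and DSC1 had at most 4.12 normalized reads in any library, and DSG1 and DSC1 were not tested.

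DSC3 (ENSG00000134762, chromosome 18, 30990008 to 31042815), a desmocollin of stratified epithelia, had 190, 266 and 163 normalized reads in GOLPH3 and 1126, 718 and 1287 in Vector. Every library labelled GOLPH3 lay below every library labelled Vector, with a log2 fold change of -2.32 (-3.06 to -1.59, adjusted p = 0.00104). DSC2 lies 16.02 kb away and did not pass, as given above. The nearest tested coding gene on the other side, CDH2 at a distance of 2813 kb, encodes N-cadherin and was also lower (adjusted p = 7.35e-06). Of the summed per-kb level of the desmocollins, DSC3 took 15.2% to 29.1% in GOLPH3 and 49.1% to 73.4% in Vector. These shares depend on the exon lengths used, 12495 bases for DSC2 and 7056 for DSC3. In normalized reads without length, the Vector means were close (1098 for DSC2 and 1044 for DSC3). There DSC2 was the higher in Vector replicates 1 and 2 and DSC3 in Vector replicate 3.

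**Figure D3:**
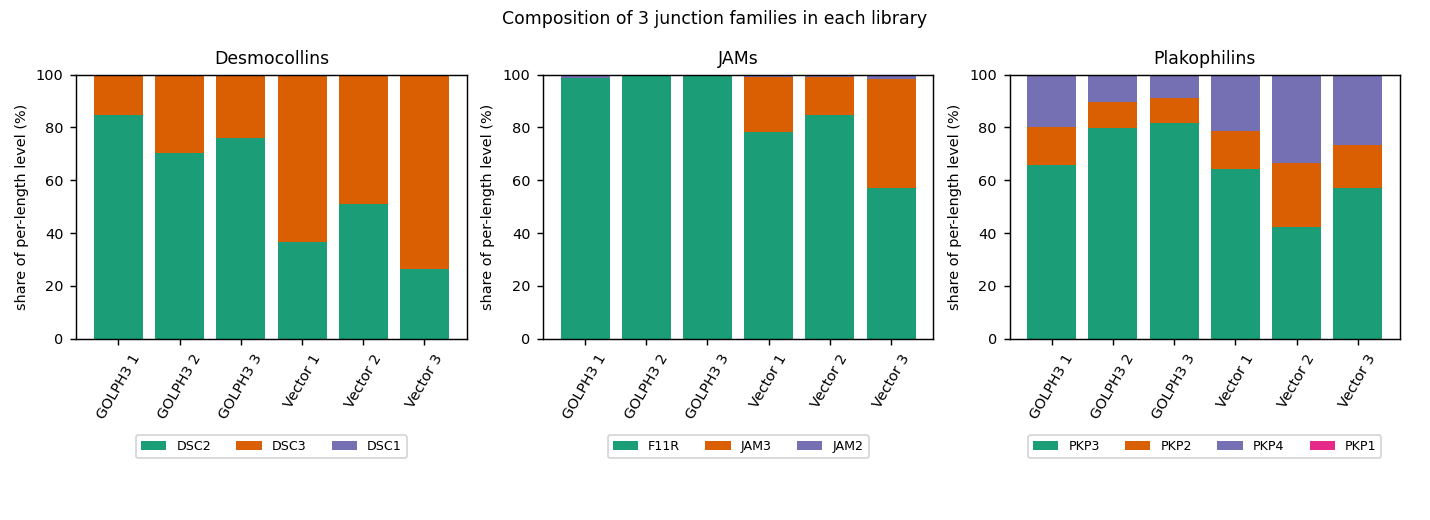
Share of the summed per-kb level of 3 families taken by each gene in each library, as stacked bars in percent. The shares depend on the exon lengths used. DSC3 took 15.2% to 29.1% of the desmocollins in GOLPH3 and 49.1% to 73.4% in Vector, JAM3 at most 0.198% and 14.7% to 41.1% of the junctional adhesion molecules, and PKP3 65.7% to 81.7% and 42.2% to 64.4% of the plakophilins.

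In the desmosomal plaque, 3 of 7 genes rose, and they were a plakophilin and 2 plakins. PPL (periplakin, ENSG00000118898, chromosome 16, 4882507 to 4960741) had 2282, 2948 and 3427 normalized reads in GOLPH3 and 968, 547 and 755 in Vector. The lowest GOLPH3 library was above the highest Vector library, and the log2 fold change was 1.95 (1.28 to 2.62, adjusted p = 0.00194). EVPL (envoplakin, ENSG00000167880, chromosome 17, 76004502 to 76027452), which pairs with periplakin, had 1773, 1328 and 2691 in GOLPH3 and 402, 561 and 742 in Vector. It rose by 1.75 on the log2 scale (0.99 to 2.5, adjusted p = 0.00979), with adjusted p-values of 0.0548 without GOLPH3 replicate 3 and 0.0844 without Vector replicate 1. The coding neighbours of PPL and EVPL (UBN1, NAGPA, TEN1 and SRP68) had log2 fold changes of 0.16 to 0.39, and none passed the test.

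PKP3 (plakophilin 3, ENSG00000184363, chromosome 11, 392614 to 404908) had 1994, 3767 and 3861 normalized reads in GOLPH3 and 1409, 600 and 1110 in Vector, without overlap (log2 fold change 1.65, 0.83 to 2.47, adjusted p = 0.0243). Its call was lost without GOLPH3 replicate 2 or 3 or Vector replicate 2 or 3 (adjusted p 0.0657 to 0.108). PKP2, with 812 to 841 and 574 to 645 normalized reads, had little spread and no overlap, but a log2 fold change of 0.46 (-0.13 to 1.04) that did not pass. PKP4 overlapped (log2 fold change 0.05, interval -0.54 to 0.64), and PKP1 had at most 1.72 normalized reads. Desmoplakin (DSP), which had the highest mean of the members over all 6 libraries, while CLDN4 had the highest in GOLPH3, had 6941, 6011 and 4931 normalized reads in GOLPH3 and 6142, 7102 and 6717 in Vector. Its groups overlapped, with a log2 fold change of -0.17 (-0.76 to 0.42, adjusted p = 0.797).

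**Figure D4:**
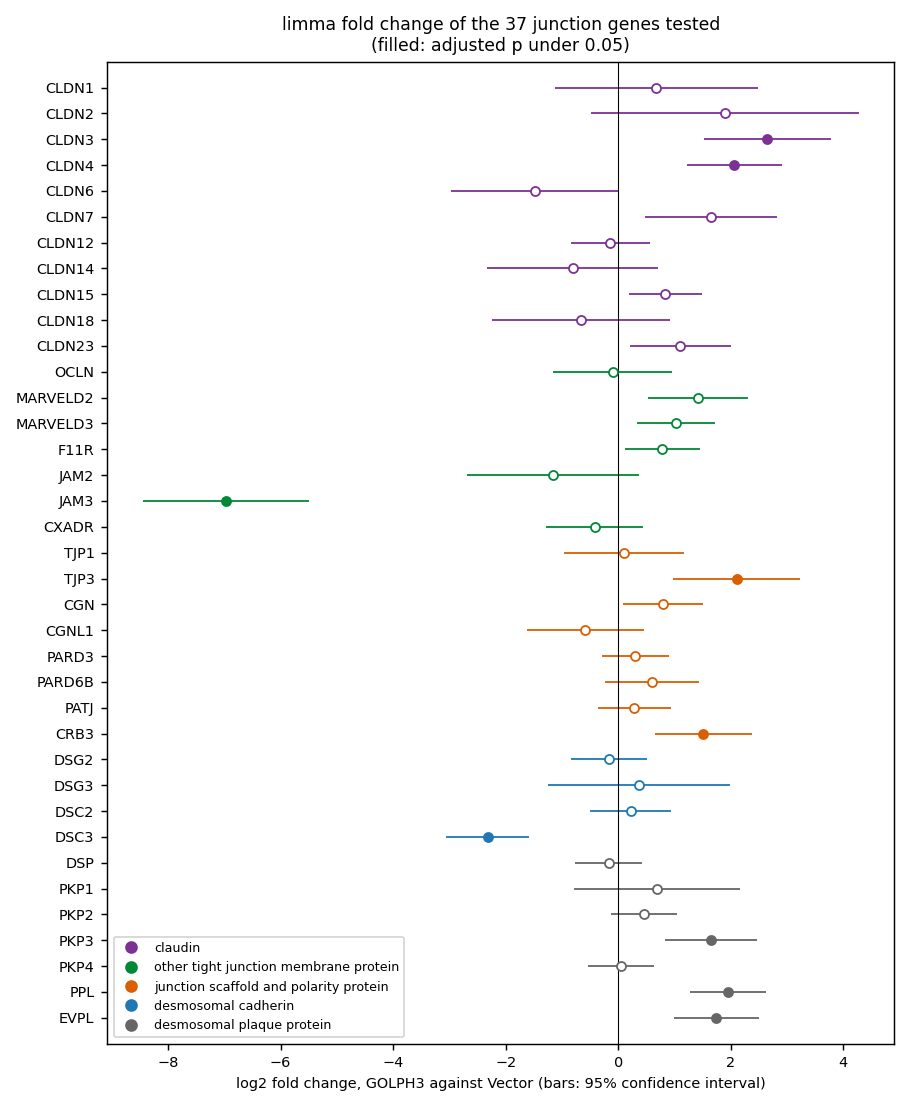
limma log2 fold change of the 37 members tested, GOLPH3 against Vector, with 95% confidence intervals, coloured by role and filled where the adjusted p was under 0.05. The 9 filled points are CLDN3, CLDN4, TJP3, CRB3, PKP3, PPL and EVPL above 0 and JAM3 and DSC3 below 0, with JAM3 farthest out at -6.97.

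By role, 2 of 11 tested claudins, 2 of 8 scaffold and polarity genes and 3 of 7 plaque genes were higher, and 1 of 7 other membrane proteins and 1 of 4 tested desmosomal cadherins were lower. The median log2 fold change was 0.84 for the claudins, 0.45 for the scaffolds, 0.69 for the plaque genes, 0.03 for the desmosomal cadherins and -0.10 for the other membrane proteins. No difference between roles was tested. Each sample title also ends in a P and a number, whose meaning the labels do not give, and only P12 and P13 occur in both groups. Within P12 the 7 higher members differed by 1.17 to 1.72 on the log2 scale and within P13 by 1.80 to 3.49, while JAM3 differed by -6.25 and -7.05 and DSC3 by -2.08 and -2.97. GOLPH3 replicate 3 was the highest of its group for 6 of the 7, and Vector replicate 2 the lowest of its group for 5 of the 7. Without GOLPH3 replicate 3, only CLDN4 and PPL of the 7 still passed, and JAM3 and DSC3 did.

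The members that were lower are set here beside the genes of the HEK293-like list. Summed over its 9 genes, this list had 144 to 157 normalized reads in GOLPH3, most of it PAX2, and 7890, 4585 and 11921 in Vector. In that list 6 of 9 genes were lower (limma adjusted p under 0.05), in which direction 4.12% of all genes tested passed. These 6 include VIM and CDH2, whose proteins the paper uses as mesenchymal markers. IRS4, UCHL1 and NEFM were at 0 in every library labelled GOLPH3. Of the genes not called, INA and LHX1 were at or under the 3-read limit in every library of both groups. PAX2 overlapped between groups (log2 fold change 0.17). The sum was lowest in Vector replicate 2 and highest in Vector replicate 3, as were JAM3 and DSC3. Single genes of the list differed in this order. IRS4, UCHL1 and CDH2 had it, but VIM was highest in Vector replicate 1 (3407 normalized reads). NEFM was lowest in Vector replicate 1 (346) and LIN28B in Vector replicate 3 (639). In bulk RNA, a change in the number of cells of a type and a change in RNA per cell cannot be told apart, and the part of these genes in the levels of JAM3 and DSC3 was not tested.

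The summed colon epithelial list was also higher in GOLPH3, at 62856 to 134430 normalized reads against 30021 to 41160 in Vector, and KRT8, KRT18 and KRT19 carried most of this sum. The keratins KRT18 and KRT19 rose (0.953% of all genes tested did), and the other 8 tested genes of the list did not pass. Of these, EPCAM, CDH1 and KRT8 were higher in GOLPH3 without overlap (limma adjusted p = 0.103, 0.0578 and 0.125). In the whole list, 6 genes did not overlap with GOLPH3 higher and 0 with GOLPH3 lower (9.2% and 12.8% of all genes tested). Among the 6, LGALS4 had at most 5 reads in any library. The intestinal transcription factor CDX2 overlapped, with a lower mean in GOLPH3 (289 ± 60.2 against 499 ± 364 normalized reads, SD, n = 3, log2 fold change -0.52, limma adjusted p = 0.636). Within Vector the sum was lowest in replicate 1 (30021), as was KRT8, while KRT18 and KRT19 were lowest in replicate 2. Summed squamous markers overlapped between groups (376 to 954 and 451 to 591 normalized reads), with KRT1 and IVL at or under the 3-read limit in every library. Fibroblast markers summed to 824 to 1517 and 480 to 786, endothelial markers to 24.7 to 44.0 and 23.7 to 34.3, and leukocyte markers to 2.47 to 7.51 and 19.7 to 54.1. The part of these lists in the members' levels was not tested.

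**Figure D5:**
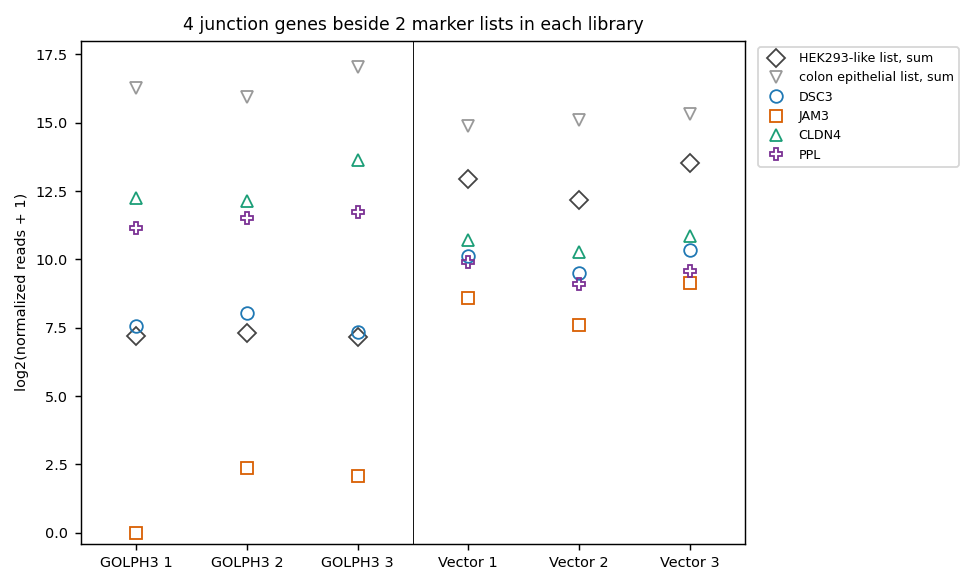
CLDN4, PPL, DSC3 and JAM3 beside the summed colon epithelial and HEK293-like marker lists in each library, as log2(normalized reads + 1). JAM3, DSC3 and the HEK293-like sum are lower in the libraries labelled GOLPH3, where that sum was 144 to 157 normalized reads, and CLDN4, PPL and the colon epithelial sum are higher.

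A second list held 42 other tight junction and desmosome genes, of which 38 were tested, 2 were higher and 4 were lower. Of all genes tested, 0.953% were higher and 4.12% lower by the same test (limma adjusted p under 0.05). For 11 of the 38 every library labelled GOLPH3 lay above every library labelled Vector, and for 8 below. Those shares over all genes tested were 9.2% and 12.8%. LSR, the tricellular junction protein angulin-1, had 3052, 5579 and 7922 normalized reads in GOLPH3 and 2189, 1169 and 2297 in Vector (log2 fold change 1.51, adjusted p = 0.0462). JUP, which encodes the plaque protein plakoglobin, had 6637, 8387 and 10975 in GOLPH3 and 4032, 2046 and 4498 in Vector (1.35, adjusted p = 0.0473). Both lay above every Vector library, but the calls were lost without any single library other than GOLPH3 replicate 1 (adjusted p up to 0.192 and 0.185). With the lists joined, the proteins of the plaque that were higher were JUP, PKP3, PPL and EVPL, and DSP did not pass.

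MPDZ, a multi-PDZ scaffold that binds claudins, had 0, 1.65 and 1.07 normalized reads in GOLPH3 and 295, 199 and 386 in Vector. All its GOLPH3 libraries were under the 3-read limit, so it was at least 99.0-fold lower against that limit averaged over the 3 libraries. AMOT (angiomotin) had 260, 125 and 154 in GOLPH3 and 4740, 3225 and 12337 in Vector (log2 fold change -5.06, adjusted p = 2.77e-05). ILDR2 and BVES were lower by smaller amounts (log2 fold changes -1.38 and -1.49, adjusted p = 0.0388 and 0.0477), and these calls were likewise lost without any library other than GOLPH3 replicate 1 (up to 0.217 and 0.195). For MPDZ and AMOT, as for JAM3 and DSC3, Vector replicate 2 was the lowest Vector library and replicate 3 the highest.

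Of the 10 claudins outside the members, 7 were tested and none passed (limma adjusted p). CLDN9, which lies 0.207 kb from CLDN6, had 24.7, 31.3 and 22.4 normalized reads in GOLPH3 and 3.09, 3.29 and 11.2 in Vector (log2 fold change 2.17, adjusted p = 0.0699). CLDN10 was at 0 in all libraries labelled GOLPH3 and at 2.06 to 6.87 normalized reads in Vector, and CLDN24 was at 1.07 to 1.65 in GOLPH3 and at 0 in Vector. In the desmosome list, PERP did not overlap between groups but did not pass (adjusted p = 0.374), and KAZN overlapped.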

How the data were processed

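RNA-seq covered 3 samples of each HCT-116 line, GOLPH3 and Vector, with groups and replicate numbers taken from the sample titles. The submitters' processing notes list fastp 0.20.0, HISAT2 2.1.0, Cufflinks, featureCounts 1.6.1, DESeq2 and GRCh38, while the annotation release, the strand setting and the treatment of multiply mapped reads are not given in the sources used here. The deposited signal is a normalized read value per gene and library: at least 99.98% of the nonzero values of a library were whole multiples (tolerance 0.02) of 1 step, so the authors divided whole reads by a size factor per library, with no correction for length. The table had 60590 rows, and where an identifier had 2 rows (44 identifiers) their values were summed.

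The members and lists were chosen with earlier results of these data known. limma 3.58.1 (R 4.3.3, mean-dependent prior variance, two-sided) was run on log2(value + 1) for genes of at least 1 in at least 3 libraries, with Benjamini-Hochberg adjustment over all 26536 genes, and the script was tested on simulated data. Values per library were given for members with an adjusted p under 0.05, for those without overlap and an absolute log2 fold change over 1, and for the most abundant of each role. Other junction genes were named if they passed or had the 3 smallest p-values of their list. Levels per kb used the union of GENCODE 29 exons, which can understate genes with long rare exons. Alternatives were quantile normalization, other filters, a pseudocount of 0.1, edgeR 4.0.16 and DESeq2 1.42.0 on the recovered reads, blocks for the replicate and P numbers, the P number as a covariate, stricter thresholds and each library left out. On the recovered reads edgeR called 1113 genes and DESeq2 1991, against 1346 by limma. No 2 libraries of a group agreed within sampling noise (chi-square per degree of freedom at least 65.4).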

Additional observations from a re-analysis of the deposited data

How the results depend on the processing

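JAM3, DSC3, CLDN4 and PPL passed the adjusted threshold in all 15 alternative fits (normalization, filters, pseudocount, DESeq2, edgeR, blocks, covariate and each library left out), CLDN3 in 14, EVPL in 13, PKP3 and TJP3 in 9 and CRB3 in 7. The count of 9 members fell to 4 without GOLPH3 replicate 3 and lay between 4 and 9 over the libraries left out, and the 7 higher members numbered 2 to 7. Without Vector replicate 1, 2 or 3 the higher members numbered 4 each time. They also numbered 4 with a pseudocount of 0.1 or an adjusted p under 0.01, and 11 at an unadjusted p under 0.05 with a log2 fold change over 1. The count of 9 members rose to 10 under quantile normalization, 11 with the P number as a covariate and 12 with DESeq2. The 6 other junction genes became 3 under quantile normalization or a pseudocount of 0.1, and 2 to 3 over the libraries left out that moved the count (GOLPH3 replicates 2 and 3 and each Vector replicate). With the P number as a block, which compares only P12 and P13 and leaves 1 degree of freedom, 19 members (16 higher) and 18 other junction genes passed, of 6082 genes called in all. Over all genes, 1346 calls became 2399 with the P number as a covariate, 459 without Vector replicate 1, 481 without Vector replicate 3, 881 without GOLPH3 replicate 3, 895 without Vector replicate 2, and 1991 with DESeq2. The cause of these shifts was not tested.

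The replicate block gave 7 members called and 2 other junction genes, but deviations of libraries with the same replicate number correlated at -0.386, -0.240 and 0.447, so these numbers were not taken as pairs. The third of these is also the P13 pair. The P12 pair correlated at 0.465, and P8 with P11, which share no number, at 0.512. Deviations from a group mean cancel out within the group, so the P8 and P11 value is tied to those of the P12 and P13 pairs. It is therefore no separate evidence on pairing. All remaining combinations were negative (-0.386 to -0.070). Since the labels do not say what P marks and only 2 numbers are shared, the P number was kept as an alternative. Over the alternatives, 18 of 547 member values turned direction, and none of these was past the threshold in the limma fit. CLDN12 became 0.019 under the P block, and OCLN 0.13 under quantile normalization and 0.0071 under the P block. TJP1 became -0.40 and -0.24, and PKP4 -0.10 and -0.023, under that block and the P covariate. With libraries left out, the log2 fold change ranged from -0.26 to 1.35 for CLDN1, from -0.40 to 0.13 for CLDN12, from -0.51 to 0.34 for OCLN, from -0.38 to 0.62 for TJP1, from -0.38 to 0.059 for DSG2, from -0.20 to 0.98 for DSG3, from -0.070 to 0.44 for DSC2, from -0.082 to 0.17 for PKP4 and from -0.55 to 0.0057 for KAZN. Differences in members of a few reads per library (CLDN6, CLDN14, DSG3, PKP1) were limited by depth.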
